A study of Arabidopsis thaliana with 210 samples.

Results

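FIL (AT2G45190, also called FILAMENTOUS FLOWER) and YAB3 (AT4G00180) are sister genes of the YABBY family of plant transcription factors. A nucleus was counted as positive when either gene had at least 5 counts and at least 10 CPM (counts scaled to a total of 1000000 counts on nuclear, plastid and mitochondrial genes of that nucleus). By this rule 50 of the 138 Smart-seq2 nuclei with at least 50000 counts on genes were positive, 23 of 57 in p1 and 27 of 81 in p2. They were compared, within p1 and within p2, with the nuclei that had fewer than 5 counts of both genes (called negative here, 30 in p1 and 54 in p2), and the remaining 4 p1 nuclei entered neither side. The nuclei were chosen by the counts and CPM of FIL and YAB3, so the levels of these genes are given as a description and support nothing.

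The nuclei came from shoot apices of Arabidopsis thaliana seedlings, ecotype Col-0, grown on soil in long days and harvested 7 days after germination. Single nuclei were sorted into wells and nuclear RNA was amplified by Smart-seq2, a full-length protocol for single cells. The labels give every nucleus as a stem cell and name no genotype, transgene, treatment, plant or pool, and they do not say what p1 and p2 stand for. The deposited table also holds an mCherry reporter that the labels do not describe. It had at least 5 counts in 6 of 23 positive and 8 of 30 negative nuclei of p1, and in 1 of 27 and 4 of 54 of p2. Since each p number counted as 1 sample, no p-value was computed, and every comparison describes these nuclei. Intervals are exact 95% Clopper-Pearson intervals and cover counting error only.

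YABBY proteins combine a zinc finger with an HMG-box-like domain. In Arabidopsis seedlings FIL, YAB3, YAB2 and YAB5 are expressed in young leaves and not in the dome of the shoot apical meristem, and FIL and YAB3 mark the abaxial (lower) side of a new organ. They act with the co-repressors LEUNIG (LUG), LEUNIG_HOMOLOG (LUH) and SEUSS (SEU) to promote the leaf blade and to keep KNOX homeobox genes of the meristem off in the organ. KANADI genes promote abaxial identity, whereas class III HD-ZIP genes and the AS1 and AS2 genes (asymmetric leaves) promote adaxial (upper) identity.

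The 250 bases before the annotated start of both genes are shown because these genes define the positive nuclei. The sequences are RefSeq's, from the TAIR10.1 genome, and are written 5′ to 3′ on the strand of the gene. The FIL window is chr2:18630780-18631029 and the YAB3 window chr4:75577-75826, both on the minus strand and overlapping no annotated protein-coding gene. Overlap with non-coding genes was not checked. Capitals mark GAATA, the core to which KANADI1 is known to bind, on either strand.

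FIL: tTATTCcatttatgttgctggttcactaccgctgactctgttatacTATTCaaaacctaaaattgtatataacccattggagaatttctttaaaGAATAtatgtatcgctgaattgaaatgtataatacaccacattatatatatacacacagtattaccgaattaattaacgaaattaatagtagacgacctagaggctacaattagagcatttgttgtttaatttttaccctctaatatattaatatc

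YAB3: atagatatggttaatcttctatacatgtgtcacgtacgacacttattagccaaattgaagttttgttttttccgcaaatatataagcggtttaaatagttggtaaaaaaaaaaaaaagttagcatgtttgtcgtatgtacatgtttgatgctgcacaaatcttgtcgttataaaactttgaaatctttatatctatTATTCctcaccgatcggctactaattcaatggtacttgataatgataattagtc

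GAATA occurred at 3 places in the FIL window and at 1 place in the YAB3 window. The auxin response element TGTCTC, sought on both strands, occurred in neither. Of 27437 such windows of nuclear protein-coding genes, 51.6% held GAATA and 10.9% held TGTCTC, so a match to GAATA is common at this length. A match is only a description of the letters.

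FIL was present (by the same minimum) in 11 of 57 p1 nuclei (19.3%, 10% to 31.9%) and in 15 of 81 p2 nuclei (18.5%, 10.8% to 28.7%). YAB3 was present in 17 of 57 (29.8%, 18.4% to 43.4%) and in 19 of 81 (23.5%, 14.8% to 34.2%). Together they made 40.4% of the p1 nuclei positive (27.6% to 54.2%) and 33.3% of the p2 nuclei (23.2% to 44.7%), and these intervals overlap. Most positive nuclei held only 1 of the pair: 14 held FIL alone, 24 held YAB3 alone and 12 held both. If the genes were spread independently within each p number, 6.80 nuclei would hold both. These genes define the positive nuclei, so this comparison is only a description. At 50000 counts, nuclei with both genes held medians of 3892 genes in p1 and 3764 in p2, against 2577.5 and 1976 in negative nuclei. The part of this richness in the overlap was not tested.

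Where FIL was present, its lowest, median and highest level was 12.8, 96.9 and 511 CPM in p1, and 26.2, 83.2 and 1800 CPM in p2. The corresponding levels of YAB3 were 64, 173 and 1087 CPM in p1, and 10.2, 100.5 and 572 CPM in p2. The levels thus reached over an order of magnitude among the nuclei that held each gene. Just inside the rule were p2 nucleus 60, with YAB3 as its higher gene at 17 CPM, and p2 nucleus 69, with YAB3 at 20.6 CPM. Just outside were p1 nucleus 21, with YAB3 at 6.37 CPM, and p1 nucleus 68, with FIL at 4.23 CPM. Among the negative nuclei, 15 of 30 in p1 and 49 of 54 in p2 had 0 counts of both genes, and no negative nucleus had more than 2 counts of either.

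**Figure D1:**
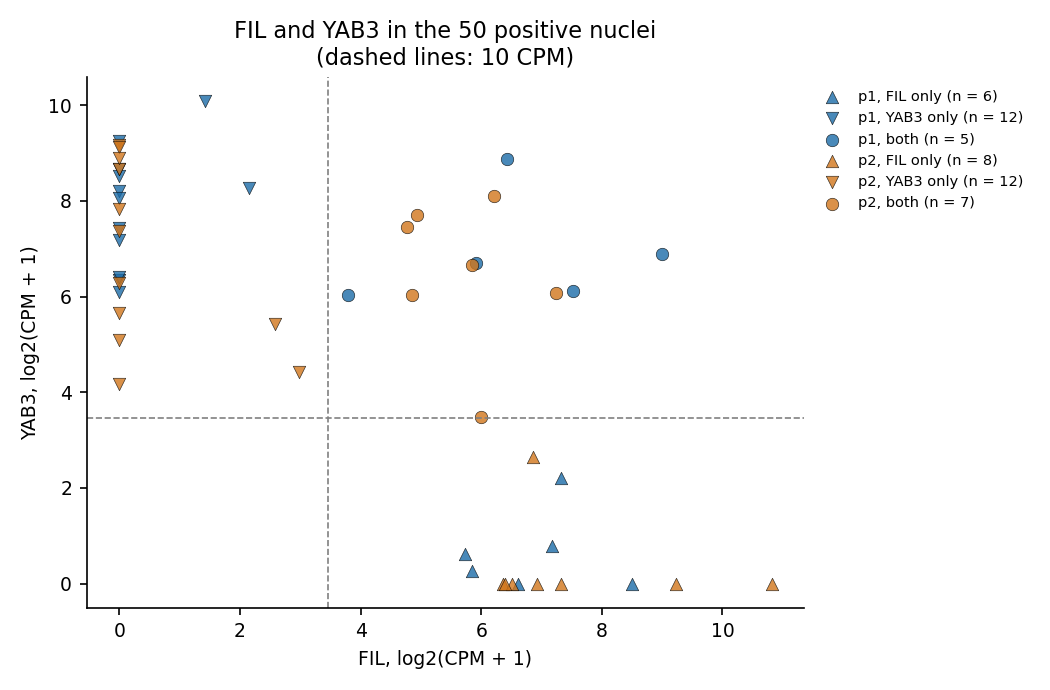
Level of FIL (x axis) and of YAB3 (y axis) in each of the 50 positive nuclei, both as log2(CPM + 1), with 1 symbol per nucleus. Upward triangles hold FIL only, downward triangles YAB3 only and circles both, p1 is blue and p2 orange, and the dashed lines mark 10 CPM. The 12 nuclei with both genes lie in the upper right, and most of the other 38 lie on or near an axis.

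The positive nuclei were deeper and richer in genes than the negative ones. Median totals were 2469353 against 1881748 counts in p1 and 588903 against 363304 counts in p2. At an equal depth of 50000 counts, a positive p1 nucleus held from 1699 to 5582 genes with a median of 3482, and a negative one from 1018 to 4989 with a median of 2577.5. In p2 the positive nuclei held from 909 to 5383 genes with a median of 2575, and the negative ones from 919 to 5291 with a median of 1976. The ranges overlap widely, but both medians were higher in the positive nuclei. Over the 6943 nuclear genes compared (each present in at least 10% of the nuclei of p1 and of p2), the share of nuclei with a gene was higher in the positive nuclei by a median of 9.28 percentage points in p1 and 7.41 in p2. The ratios of mean CPM had medians near 0 on the log2 scale, 0.01 in p1 and -0.04 in p2. A share is therefore read below against these median differences, and a ratio against 0. The plastid and mitochondrial share of counts had medians of 14.6% (positive) and 14.8% (negative) in p1, and of 16.9% and 19.9% in p2.

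**Figure D2:**
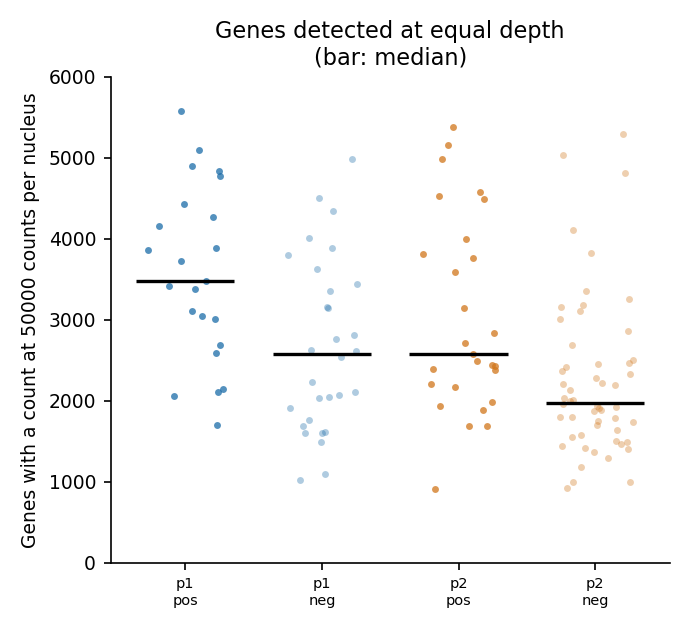
Number of genes with a count per nucleus (y axis) after every nucleus was thinned to 50000 counts, for the 23 positive and 30 negative p1 nuclei (blue) and the 27 positive and 54 negative p2 nuclei (orange), with 1 point per nucleus and the median as a bar. The positive medians, 3482 in p1 and 2575 in p2, lie above the negative medians, 2577.5 and 1976.

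Of the meristem genes, SHOOT MERISTEMLESS (STM, AT1G62360), the KNOX gene that keeps meristem cells undifferentiated, was the clearest difference. In p1, 3 of 23 positive nuclei held STM (13%, 2.78% to 33.6%), at 27.1, 107 and 141 CPM. Of the negative p1 nuclei, 9 of 30 held it (30%, 14.7% to 49.4%), from 137 to 755 CPM with a median of 466 CPM. All but 1 of the levels in STM-holding positive p1 nuclei thus lay below the lowest level in the STM-holding negative ones, 137 CPM.

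In p2, 4 of 27 positive nuclei held STM (14.8%, 4.19% to 33.7%), at 122, 200, 326 and 441 CPM. Of the negative p2 nuclei, 22 of 54 held it (40.7%, 27.6% to 55%), from 12.9 to 1154 CPM with a median of 249 CPM. In p2 the levels of the nuclei that held STM overlapped, and the difference lay in how many held it. The mean over all nuclei was 12.4 against 125 CPM in p1, a log2 ratio of -3.34, and 40.3 against 131 CPM in p2, a log2 ratio of -1.70.

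These shares went against the general excess of genes in the positive nuclei. At 50000 counts per nucleus, where 1 count was enough for presence, 2 of 23 positive and 10 of 30 negative nuclei of p1 held STM. In p2, 4 of 27 and 21 of 54 did. Among nuclei of similar complexity (those between the lower and upper quartile of the positive nuclei in genes at 50000 counts), 2 of 11 positive and 4 of 9 negative nuclei of p1 held STM, and 1 of 13 and 10 of 19 of p2. The log2 ratios there were -3.08 and -3.72. Over 11 alternative settings the log2 ratio ran from -4.84 to -1.13 in p1 and from -3.72 to -1.06 in p2, so that STM stayed lower beyond 2-fold in all 11. STM was present in 3 of the 14 nuclei with FIL only, in 3 of the 24 with YAB3 only and in 1 of the 12 with both.

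The other KNOX genes did not share this pattern in both p numbers. KNAT1 (BREVIPEDICELLUS) was present in 12 of 23 positive against 9 of 30 negative nuclei in p1, and in 8 of 27 against 23 of 54 in p2, with log2 ratios of 0.45 and -1.46. KNAT6 had log2 ratios of -0.10 and -0.50. KNAT2 changed sign between the p numbers, at -0.82 and 1.11. At least 1 of the 4 KNOX genes was present in 17 of 23 positive nuclei of p1 and in 21 of 27 of p2, against 26 of 30 and 44 of 54 negative nuclei, so most positive nuclei still held KNOX transcripts.

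HAIRY MERISTEM 2 (HAM2, AT3G60630), a GRAS factor that maintains the meristem, was also lower in the positive nuclei of both p numbers. It was present in 5 of 23 against 11 of 30 nuclei in p1, with means of 33.4 and 110 CPM and a log2 ratio of -1.72. In p2 it was present in 4 of 27 against 13 of 54 nuclei, with means of 22.8 and 93.7 CPM and a log2 ratio of -2.04. The highest levels were 343 CPM (positive) and 718 CPM (negative) in p1, and 229 and 1362 CPM in p2, and the groups overlapped. Among nuclei of similar complexity HAM2 was no longer beyond 2-fold in p2, where its log2 ratio was -0.73.

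The meristem list as a whole held 15 genes, of which 9 could be compared, 0 were higher and 2, STM and HAM2, lower beyond 2-fold in both p numbers. Over all 6943 genes, 255 (3.67%) were higher and 268 (3.86%) lower by that rule. The list's median log2 ratios were -0.82 in p1 and -0.50 in p2, against 0.01 and -0.04 over all genes. CLAVATA1 (CLV1), a receptor kinase of the stem cell pathway, gave log2 ratios of -2.75 in p1 and 0.56 in p2. The stem cell peptide gene CLAVATA3 (CLV3) was present in 7 of 50 positive and 7 of 84 negative nuclei, and WUSCHEL (WUS), of the organising centre, in 2 and 1. Both were too rare to be compared by ratio. Among nuclei of similar complexity, CLV3 was present in 5 of 11 positive and 0 of 9 negative nuclei of p1. In p2 it was present in 0 of 13 and 2 of 19.

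Of the organ boundary genes, CUP-SHAPED COTYLEDON 3 (CUC3), a NAC factor of the boundary between meristem and organ, was present in 0 of the 50 positive nuclei. With 3 nuclei taken as the limit that a count of 0 allows, its share could be up to 13% of the 23 p1 nuclei and 11.1% of the 27 p2 nuclei, and the upper exact bounds are 14.8% and 12.8%. It was present in 4 of 30 negative p1 nuclei, with a highest level of 195 CPM, and in 3 of 54 negative p2 nuclei, with a highest level of 628 CPM. Its shares in the negative nuclei, 13.3% and 5.56%, are so close to or below those limits that a difference was not detectable at this number of nuclei. CUC1 was present in 7 positive and 4 negative nuclei, and CUC2 in 4 and 4. At least 1 of CUC1, CUC2, CUC3 and the boundary gene LOB was present in 7 of 23 positive against 6 of 30 negative nuclei in p1, and in 6 of 27 against 7 of 54 in p2. Of the 10 listed boundary genes only LSH3 and LSH4 could be compared, and neither was beyond 2-fold in either p number.

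**Figure D3:**
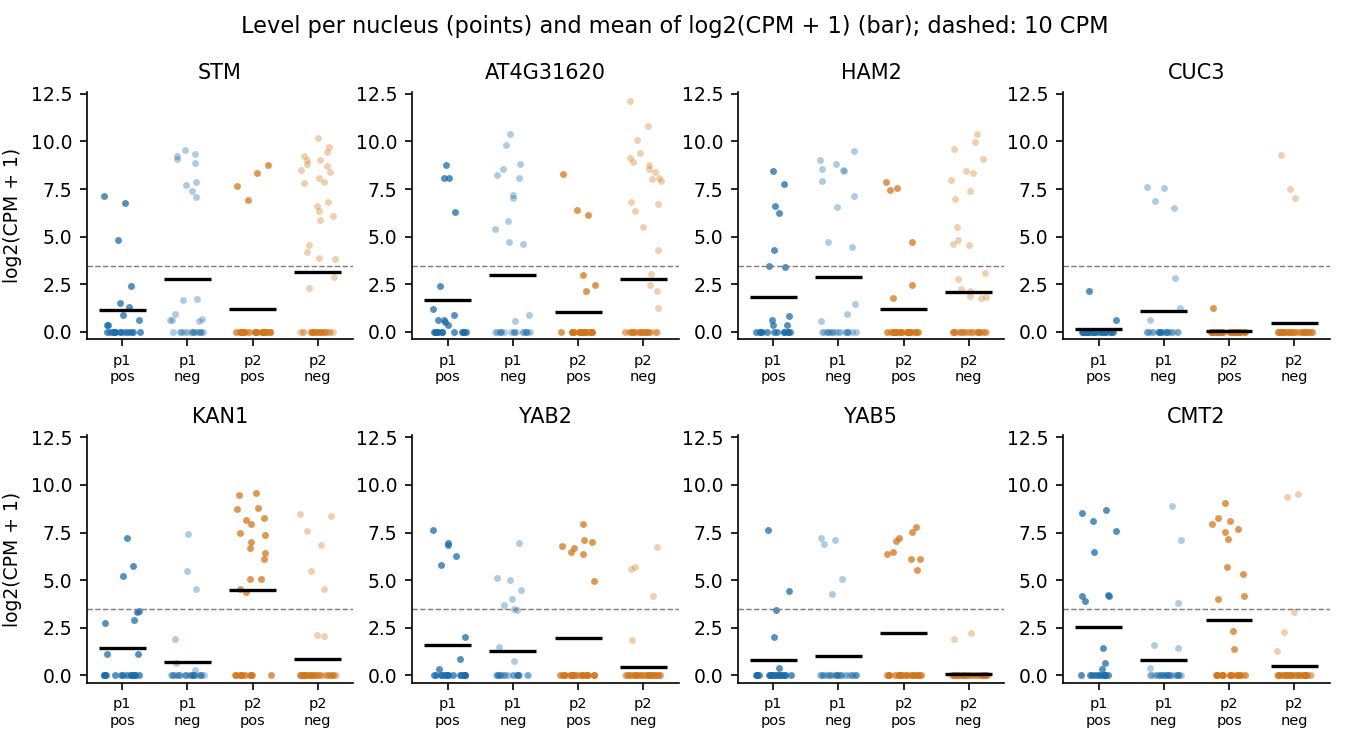
Level of 8 genes per nucleus, as log2(CPM + 1) (y axis), in the positive (pos) and negative (neg) nuclei of p1 (blue) and p2 (orange), with 1 point per nucleus, the mean of the plotted values as a bar and 10 CPM as a dashed line. STM is above the line in 3 and 4 positive nuclei against 9 and 22 negative ones, CUC3 in no positive nucleus, and KAN1 in 17 of 27 positive p2 nuclei.

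Among the abaxial genes, KANADI1 (KAN1, AT5G16560) was higher in the positive nuclei of p2 and differed little in p1. In p2 it was present in 17 of 27 positive nuclei (63%, 42.4% to 80.6%), from 20.0 to 769 CPM with a median of 163 CPM where present, and in 6 of 54 negative nuclei (11.1%, 4.19% to 22.6%), from 21.8 to 348 CPM. The p2 means were 149 and 19.5 CPM, a log2 ratio of 2.93. In p1 it was present in 3 of 23 positive nuclei, at 36.7, 52.6 and 149 CPM, and in 3 of 30 negative nuclei, at 22.1, 43.5 and 169 CPM. The p1 means, 11.8 and 7.92 CPM, gave a log2 ratio of 0.57, and the p1 groups overlapped throughout. Whether the difference itself differed between p1 and p2 was not tested. Among nuclei of similar complexity the log2 ratios were 2.20 (3 of 11 against 1 of 9 nuclei) and 2.56 (9 of 13 against 2 of 19 nuclei). Of the nuclei with FIL only, 3 of 14 held KAN1, of those with YAB3 only 11 of 24, and of those with both 6 of 12.

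The other abaxial genes were less regular. KAN2 was present in 8 of 23 against 6 of 30 nuclei in p1 and in 12 of 27 against 13 of 54 in p2, with log2 ratios of 1.02 and 0.05. AUXIN RESPONSE FACTOR 3 (ARF3, AT2G33860, ETTIN), a repressor that acts with KANADI, gave 2.52 and -0.91. ARF4 gave 0.21 and 0.35. Of 6 abaxial genes 4 could be compared and 0 were beyond 2-fold in both p numbers in either direction, with median log2 ratios of 0.79 in p1 and 0.20 in p2. The summed level of the 6 genes had a median of 164 CPM in positive and 32.3 CPM in negative nuclei of p1, and of 263 and 1.77 CPM in p2. Positive medians were also higher in both p numbers in other lists, as in the organ boundary list, with 110 against 5.35 CPM in p1 and 73.7 against 0 CPM in p2.

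The other leaf YABBY genes, YAB2 and YAB5, gave unlike pictures in p1 and p2. YAB2 (AT1G08465) was present in 5 of 23 positive nuclei of p1, from 54.9 to 201 CPM, and in 7 of 30 negative nuclei, from 10 to 123 CPM. In p2 it was present in 8 of 27 positive nuclei, from 29.6 to 242 CPM, and in 4 of 54 negative nuclei, from 17.2 to 107 CPM. The shares in p1 were alike, 21.7% and 23.3%, but the level where present was higher in the positive nuclei, with medians of 112 and 21 CPM. The mean level of YAB2 was 24.6 against 8.58 CPM in p1 and 33.9 against 4.16 CPM in p2, log2 ratios of 1.52 and 3.03, and YAB2 was 1 of the 255 genes higher beyond 2-fold in both. Its p1 ratio rests on nuclei with YAB3: with FIL alone as the rule it was -4.52. YAB2 was present in 1 of 14 nuclei with FIL only, in 7 of 24 with YAB3 only and in 5 of 12 with both.

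YAB5 (AT2G26580) was present in 9 of 27 positive p2 nuclei (33.3%, 16.5% to 54%), from 45.6 to 218 CPM with a median of 88.2 CPM, and in 0 of 54 negative p2 nuclei, where the limit of 3 nuclei is a share of 5.56% and the upper exact bound 6.60%. In p1 the order was the other way, with 2 of 23 positive nuclei, at 20.9 and 194 CPM, and 5 of 30 negative nuclei, from 17.9 to 145 CPM. The p1 means were 9.91 and 15 CPM, a log2 ratio of -0.60. The flower genes CRABS CLAW (CRC) and INNER NO OUTER (INO), the remaining YABBY genes, were present in no nucleus of either set. Of the YABBY co-repressors, LUG was lower in both, with log2 ratios of -1.12 and -1.05. LUG fell short of 2-fold in both among nuclei of similar complexity, at -0.46 and -0.64. LUH was present in 39 of the 50 positive nuclei and its ratios were near 0, at 0.07 and -0.19. SEU gave -2.29 and -0.27.

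Adaxial genes were present in about as many positive nuclei as abaxial ones. PHABULOSA (PHB), a class III HD-ZIP factor, was present in 27 of the 50 positive nuclei, REVOLUTA (REV) of the same class in 26, and AS1 (asymmetric leaves 1), a MYB factor that keeps KNOX genes off in leaves, in 25. Their log2 ratios were -0.47 and -0.38 for PHB, -0.19 and 0.93 for REV, and -0.52 and 1.41 for AS1, p1 first. PHAVOLUTA (PHV) gave 0.10 and -1.11, and CORONA (CNA) -1.53 and 0.02. AS2, the partner of AS1, was present in 2 positive and 8 negative nuclei. Of 8 adaxial genes 5 could be compared and 0 were beyond 2-fold in both p numbers in either direction. At similar complexity only PHV of them was called, lower at -2.72 and -1.48. It was present there in 3 of 11 against 2 of 9 nuclei of p1 and in 1 of 13 against 4 of 19 of p2.

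At least 1 of the 8 adaxial genes was present in 20 of 23 positive and 25 of 30 negative nuclei of p1, and in 23 of 27 and 38 of 54 of p2. At least 1 of YAB2, YAB5 and the abaxial genes was present in 19 of 23 and 22 of 30 nuclei of p1, and in 22 of 27 and 26 of 54 of p2. An abaxial and an adaxial transcript occurred together in 17 of 23 positive and 18 of 30 negative nuclei of p1, and in 19 of 27 and 18 of 54 of p2. Most positive nuclei thus carried transcripts of both kinds of gene, as did most negative nuclei of p1. The positive nuclei also had a higher median number of genes, and its part in these shares was not tested.

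**Figure D4:**
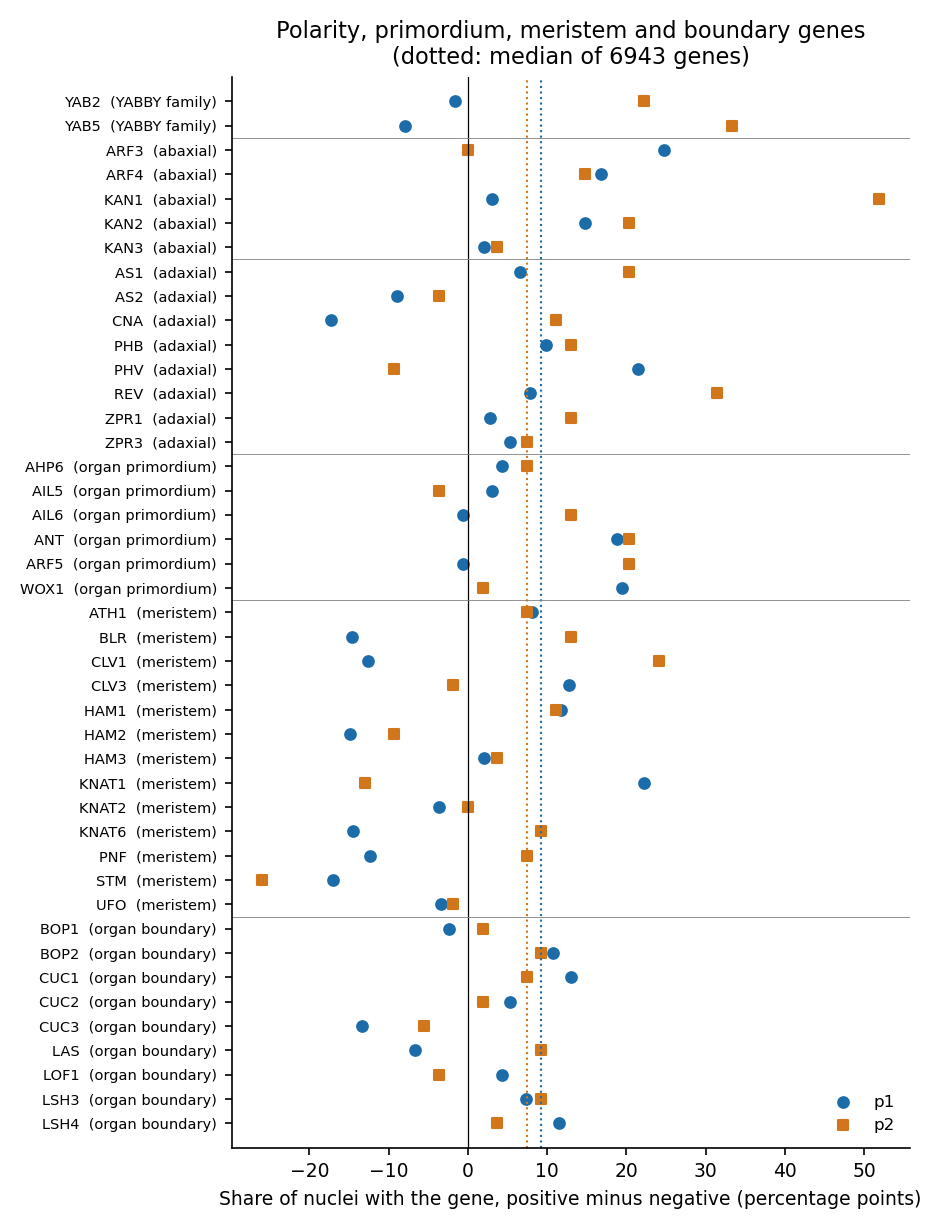
Difference between positive and negative nuclei in the share of nuclei with a gene (x axis, percentage points) for polarity, primordium, meristem and boundary genes present in at least 5 of the 134 nuclei, p1 as blue circles and p2 as orange squares, with the median over all 6943 genes compared as dotted lines (9.28 in p1, 7.41 in p2). STM lies far left of both lines in p1 and p2, whereas KAN1 and YAB5 lie far right in p2 only.

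The organ primordium list held 12 genes. Their summed level had a median of 215 CPM in positive and 56.6 CPM in negative nuclei of p1, and of 283 and 130 CPM in p2, with overlapping ranges. AINTEGUMENTA (ANT), an AP2 factor that promotes organ growth, was the most frequent, in 12 of 23 against 10 of 30 nuclei of p1 and in 16 of 27 against 21 of 54 of p2. Its mean level went the other way in p1, with log2 ratios of -0.93 and 0.32. AIL6, a relative of ANT, gave -0.58 and 0.68, and MONOPTEROS (ARF5), the auxin response factor that starts organs, gave 0.20 and 1.45. AIL5 was lower in mean level in both, at -1.03 and -1.32, and was present in 7 of 50 positive and 13 of 84 negative nuclei. It stayed beyond 2-fold in both p numbers in 4 of 11 alternative settings, over which its p1 log2 ratio ran from -2.26 to 0.62. Of the 12 genes 4 could be compared, 0 were higher and 1, AIL5, lower beyond 2-fold in both p numbers. LEAFY (LFY) and WOX3 (PRESSED FLOWER) were present in no nucleus of either set, and DORNROESCHEN (DRN) and PUCHI in no positive nucleus. WOX1, which acts in the blade margin, was present in 6 of 23 positive against 2 of 30 negative nuclei of p1, and in 1 of 27 against 1 of 54 of p2. Since no primordium gene was higher beyond 2-fold in both p numbers, the nuclei are called by FIL and YAB3 here.

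Genes of leaf growth gave no common direction. Of the 8 GRF and GIF genes, which promote cell proliferation in leaves, 5 could be compared and 0 were beyond 2-fold in both p numbers in either direction. Only TCP2 of the 8 CIN-TCP genes, which slow proliferation as a leaf matures, could be compared, with log2 ratios of -0.35 and -1.66. Of the D-type cyclins, which promote entry into division, CYCD1;1 was present in 12 of 23 against 10 of 30 nuclei of p1 and in 18 of 27 against 16 of 54 of p2. Its log2 ratios were 0.74 and 0.77, short of 2-fold. Of 9 D-type cyclins and inhibitors 4 could be compared and 0 were beyond 2-fold in both p numbers in either direction. By share of nuclei, 219 genes (3.15%) were higher by at least 20 percentage points in both p numbers. The listed genes among them were CYCD3;2, with log2 ratios of 1.04 and 0.55, and AGO10. Among nuclei of similar complexity neither share was higher in p1. There CYCD3;2 was present in 5 of 11 against 5 of 9 nuclei, and AGO10 in 3 of 11 against 3 of 9.

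Division genes of later phases had log2 ratios below 0 in p2, in all 5 that could be compared there, but not in p1. Of 14 listed genes of G2 and mitosis 5 could be compared, 0 were higher and 1, the mitotic cyclin CYCB1;1, lower in both, at -1.72 and -1.62. The median log2 ratio of these 5 was 0.22 in p1 and -1.62 in p2. The other 9 were too rare to be compared and had no common direction: the mitotic cyclin CYCB2;2 was present in 1 positive and 10 negative nuclei, CYCB2;1 in 4 and 2, and the kinase gene CDKB2;2 in 7 and 5. Of 10 S phase genes 8 could be compared, with median log2 ratios of -0.18 and -0.20 and 0 calls.

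Auxin drives the formation of organs at the meristem flank, and the auxin list held 17 genes, of which 9 could be compared. IAA2 (AT3G23030), an auxin-induced gene, was higher beyond 2-fold in both p numbers. It was present in 7 of 23 against 5 of 30 nuclei of p1, with highest levels of 184 and 93.6 CPM, and in 12 of 27 against 9 of 54 of p2, with highest levels of 1088 and 943 CPM. The mean level was 35.1 against 10.7 CPM in p1 and 136 against 51.1 CPM in p2, log2 ratios of 1.71 and 1.41, and the groups overlapped. IAA2 fell short of 2-fold in p2 among nuclei of similar complexity, with log2 ratios of 1.43 in p1 and 0.95 in p2. It was present in 2 of 14 nuclei with FIL only, in 13 of 24 with YAB3 only and in 4 of 12 with both. The auxin importer gene LAX1 gave 0.86 and 1.75. The list's median log2 ratios were 0.20 and 0.37.

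The series is about ARGONAUTE (AGO) proteins, which carry small RNAs, and 4 of the 10 AGO genes could be compared. AGO10, which holds the microRNAs that repress HD-ZIP III genes away from their targets, was present in 7 of 23 positive against 3 of 30 negative nuclei of p1 (30.4% and 10%), with highest levels of 2117 and 117 CPM. In p2 it was present in 13 of 27 against 14 of 54 nuclei (48.1% and 25.9%), with highest levels of 197 and 706 CPM. The shares over all nuclei were thus higher in both, but the mean levels had opposite signs, at log2 ratios of 4.21 and -0.42. Among nuclei of similar complexity the share was not higher in p1, at 3 of 11 against 3 of 9 nuclei. In p2 it was 7 of 13 against 7 of 19. AGO1, the main microRNA effector, gave 0.16 and 1.62, AGO4, of DNA methylation, 1.53 and 0.24, and AGO9 -0.81 and -0.19. Of these 4 genes 0 were beyond 2-fold in both p numbers in either direction. At similar complexity AGO9 was lower beyond 2-fold in both, at -6.14 and -4.03, whereas AGO1, AGO4 and AGO10 were not called. AGO9 rested there on few nuclei, 0 of 11 against 2 of 9 in p1 and 1 of 13 against 6 of 19 in p2. Of 5 trans-acting siRNA genes, whose products restrict ARF3 and ARF4, 3 could be compared and 0 were beyond 2-fold in both. TAS3, the source of these siRNAs, was present in 9 positive and 11 negative nuclei.

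Markers of other tissues were found in both sets. At least 1 of the epidermal genes ATML1, PDF1 and FDH was present in 23 of 23 positive and 26 of 30 negative nuclei of p1, and in 22 of 27 and 28 of 54 of p2. PDF1, a gene of the outermost cell layer, had a median level of 476 against 710 CPM in p1 and of 1046 against 4.57 CPM in p2. The summed level of the 10 epidermal genes ran from 1050 to 10270 CPM in positive and from 529 to 15252 CPM in negative nuclei of p1. In p2 it ran from 355 to 21331 CPM in positive and from 0 to 17401 CPM in negative nuclei. Of the 9 epidermal genes compared 0 were beyond 2-fold in both p numbers in either direction. Of 10 vascular genes 2 could be compared and 0 were called, and the phloem transporter gene SUC2 was present in 9 positive and 15 negative nuclei. The summed vascular level ran from 0 to 605 CPM in positive and from 0 to 1643 CPM in negative nuclei of p1, and from 0 to 1705 and from 0 to 3945 CPM in p2. Of 11 genes of stomata and trichomes none was frequent enough to be compared, and MUTE, FAMA and EPF1 were present in no positive nucleus. Of 7 root, pollen or seed genes only OLEO1 was present in a positive nucleus.

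Photosynthesis genes, which mark green tissue, had widely overlapping levels in both sets. The summed level of 21 genes ran from 20318 to 95225 CPM in positive and from 6486 to 72080 CPM in negative nuclei of p1, and from 10928 to 64959 and from 6139 to 177782 CPM in p2. All 21 could be compared, 0 were called, and the median log2 ratios were 0.32 and -0.14. The Rubisco small subunit genes and the LHCB1 genes are near-identical copies among which counts can be split, so their single values are uncertain.

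Over all lists 104 of 203 genes (without FIL and YAB3) could be compared. Of these, 2 were higher in the positive nuclei beyond 2-fold in both p numbers, YAB2 and IAA2, against 3.67% of all genes. The 5 that were lower, STM, HAM2, LUG, AIL5 and CYCB1;1, stand against 3.86% of all genes. The share of listed genes called was thus below that of all genes on the higher side and little above it on the lower side. Over 11 alternative settings, STM stayed beyond 2-fold in both p numbers in 11, YAB2 and CYCB1;1 in 9, HAM2 and IAA2 in 8, and LUG and AIL5 in 4. Of the 5 housekeeping genes 4 could be compared and 0 were called, with a median log2 ratio of -0.23 in p2.

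Across the genome, calls in p1 and p2 coincided little more than independent calls would. In p1 alone, 18.8% of the 6943 genes were higher and 18.2% lower beyond 2-fold, and in p2 16.4% and 18.4%. Independent calls would leave 214 genes higher and 233 lower in both, against the 255 and 268 found. Genes higher in p1 and lower in p2 numbered 243 (241 if independent), and the reverse 209 (208). By share of nuclei, 219 genes were higher by at least 20 percentage points in both, and 1 was lower (0.0144%).

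**Figure D5:**
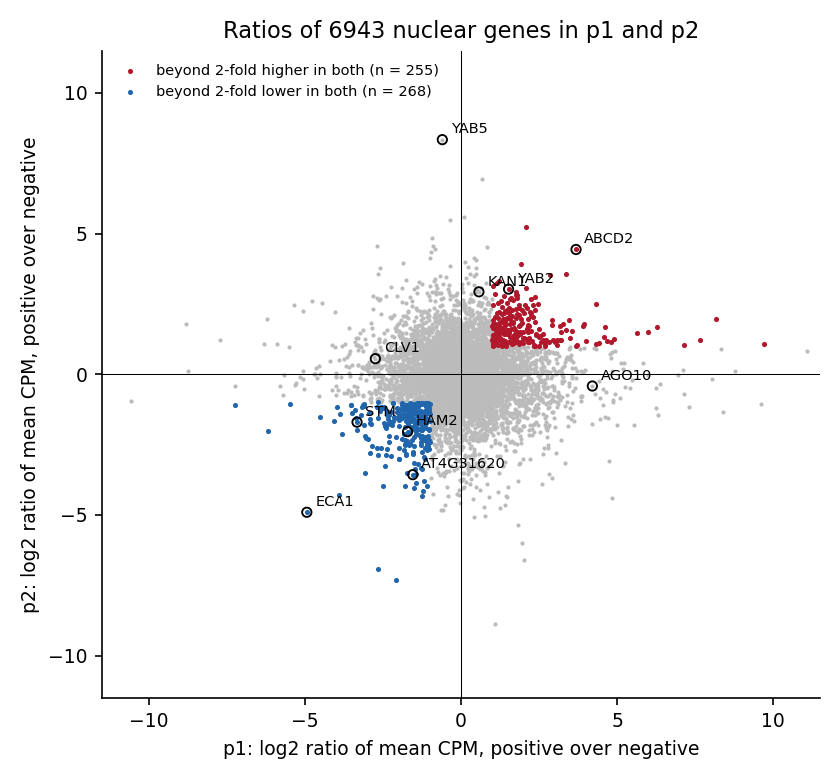
Log2 ratio of mean CPM, positive over negative nuclei, in p1 (x axis) and p2 (y axis) for each of the 6943 genes compared, with the 255 genes higher beyond 2-fold in both in red and the 268 lower in blue. Grey points fill all 4 quadrants, STM and HAM2 lie at the lower left, and YAB5, KAN1, CLV1 and AGO10 lie outside the called corners.

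The 1 gene lower by share in both p numbers was AT4G31620 (REM36, REPRODUCTIVE MERISTEM 36, of the plant B3 family of DNA-binding proteins). It was present in 4 of 23 positive against 12 of 30 negative nuclei of p1, with means of 46.3 and 135 CPM and a log2 ratio of -1.55. In p2 it was present in 3 of 27 against 17 of 54 nuclei, with means of 17.8 and 211 CPM and a log2 ratio of -3.57. In both p numbers levels in the nuclei that held it overlapped between the sets. Among nuclei of similar complexity its p1 log2 ratio was -0.85, short of 2-fold.

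The remaining lower genes, ranked by the smaller share difference of p1 and p2, came after STM. The phosphatidylinositol 3-kinase gene VPS34 was present in 2 of 23 against 6 of 30 nuclei of p1 and in 1 of 27 against 12 of 54 of p2, with log2 ratios of -3.09 and -3.51. VPS2.2, of the ESCRT machinery, was present in 1 positive and 14 negative nuclei. ECA1, a calcium pump of the endoplasmic reticulum, had means of 3.47 against 107 CPM in p1 and 1.35 against 40.5 CPM in p2, log2 ratios of -4.95 and -4.90. AT2G37990, of the family of the ribosome assembly factor RRS1, gave -2.23 and -2.91. AT5G63490, AT5G41870, AT2G19340 and AT1G32580, whose roles are not described here, had log2 ratios between -3.97 and -1.18.

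On the higher side 15 genes were named by the same ranking. CHROMOMETHYLASE 2 (CMT2), which methylates cytosines outside CG sites, was present in 9 of 23 against 3 of 30 nuclei of p1 and in 11 of 27 against 2 of 54 of p2. Its mean level was 60.6 against 21 CPM in p1 and 74.5 against 26.3 CPM in p2, log2 ratios of 1.53 and 1.5, and in both p numbers the highest single levels were in negative nuclei. The histone deacetylase gene HDA15 gave 2.35 and 1.03, and HEN4, a KH-domain RNA-binding protein, 1.97 and 1.1. Among nuclei of similar complexity HDA15 fell short of 2-fold in p2, at 0.53, and HEN4 in both, at 0.22 and 0.59. Over 11 alternative settings HDA15 stayed beyond 2-fold in both p numbers in 6, and HEN4 in 4. AT1G09640, an elongation factor 1B gamma chain, was present in 17 of 23 against 11 of 30 nuclei of p1 and in 13 of 27 against 9 of 54 of p2, with log2 ratios of 1.68 and 1.25. The ribosomal protein genes AT5G47190 and AT4G02230 gave 1.56 and 2.07, and 2.02 and 1.29.

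ABCD2, an ABC transporter gene, was present in 10 of 23 against 4 of 30 nuclei of p1, with means of 173 and 13.4 CPM, and in 8 of 27 against 3 of 54 of p2, with means of 119 and 5.52 CPM. Its log2 ratios, 3.69 and 4.44, were the largest of the 15 when the smaller of p1 and p2 is taken. SHA1 (SHOOT APICAL MERISTEM ARREST 1), a RING finger protein needed to maintain the meristem, gave 2.23 and 2.06 on 16 positive and 8 negative nuclei. SIS3, a ubiquitin ligase of sugar response, gave 2.63 and 1.42, and RTFL17, of a family of small peptides that restrict organ growth, 1.47 and 1.43. GSTF2, a glutathione S-transferase, gave 1.59 and 2.73, LSMT-L, a lysine methyltransferase, 1.42 and 2.25, and ATG18H, of autophagy, 4.59 and 1.33. AT1G04300, a TRAF-like protein, gave 2.16 and 1.16, and AT5G53440, whose role is not described here, 1.25 and 1.26. All 15 were higher in share as well, as the naming rule requires, and share differences were positive for most genes.

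Of the 31 genes called in both p numbers and named above, 4 stayed beyond 2-fold in both under all 11 alternative settings. These were STM on the lower side, and AT1G09640, AT4G02230 and ABCD2 on the higher side. Among nuclei of similar complexity, 16 of the 31 stayed beyond 2-fold in both. Of the 15 higher genes, AT5G53440, SIS3, GSTF2, LSMT-L, AT1G04300, HEN4, HDA15 and RTFL17 did not. Nor did AT4G31620, VPS2.2 and AT5G41870 of the ranked lower genes, or IAA2, HAM2, LUG and AIL5 of the listed genes.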

How the data were processed

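The series measured nuclear RNA in single sorted nuclei of shoot apices. Its deposited table gives an estimated count for each gene in each well, with no normalization. Per the submitters' processing notes the build was TAIR10 and DESeq2 was used, with no role or version given, and the aligner and counter are not given in the sources used here. Values were rounded to whole numbers. Transposable elements and the reporter stayed out of library sizes. Wells hold no cell barcodes, and each was sorted to receive 1 nucleus, so no doublet caller was run. Reads carry no molecular identifiers.

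Smart-seq2 nuclei with at least 50000 counts were used. CPM is relative to counts on nuclear, plastid and mitochondrial genes. A gene was present from 5 counts and 10 CPM, and was compared when present in at least 10% of the positive and negative nuclei together in p1 and in p2. The ratio is that of equal-weight mean CPM, with 3 counts as the floor for a mean, and a call is 2-fold in the same direction in both p numbers, or 20 percentage points of share. With 1 sample per p number there is no test and the calls are folds. Nuclei were thinned without replacement for equal depth, and a gene was then present from 1 count. The calculation was run on simulated data with 4-fold changes in genes of high mean level. This does not test calls at 2-fold or in rarer genes. Symbols and upstream windows came from RefSeq (TAIR10.1), whose nuclear chromosomes were taken to be those of TAIR10.

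Named genes were all members of the lists (polarity, primordium, leaf growth, meristem, boundary, tissue, cell cycle, auxin, ARGONAUTE, siRNA and housekeeping genes), and the 15 higher and 10 lower protein-coding genes with the largest smaller share difference among the calls. The positive nuclei, the lists and the tests were chosen with earlier results of these data known. Alternatives concerned library size, scaling, weight of a nucleus, the log2 scale with a pseudocount of 10 CPM, depth, the highest nucleus, and the positive and negative rules. A comparison among nuclei of similar complexity was added after the data were seen. Smart-seq3, bulk and negative control wells entered no comparison. The values of 1 listed gene are not reported here. Python 3.11.15, numpy 2.4.6, pandas 2.3.3, scipy 1.17.1 and matplotlib 3.10.9 were used.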

Additional observations from a re-analysis of the deposited data

Results flagged for a closer look

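Among listed genes, 2 had ratios beyond 2-fold in opposite directions in p1 and p2, and these differences were not tested. GRF2 (AT4G37740), a growth-regulating factor of leaves, had a log2 ratio of -2.23 in p1, where 4 of 23 positive and 8 of 30 negative nuclei held it, and of 2.05 in p2, where 12 of 27 and 12 of 54 held it. HDG2, an epidermal homeobox gene, had a log2 ratio of 2.13 in p1, with 6 of 23 against 7 of 30 nuclei, and of -1.01 in p2, with 7 of 27 against 6 of 54. Over all genes, opposite calls were about as many as independent calls would give.

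FIL and YAB3 were also counted in wells outside the comparison. The bulk wells, labelled as pools of 50 nuclei although their column names carry another number, held 78 counts of FIL and 60 of YAB3 in p1, and 22 and 19 in p2. Of 20 Smart-seq3 nuclei, 4 were positive by the same minimum. FIL had 26 counts in p1 nucleus 5 and 13 in p1 nucleus 7, and YAB3 had 648 counts in p2 nucleus 12 and 437 in p2 nucleus 6. The negative control wells held 0 counts of both genes. None of these differences was tested.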

How the results depend on the processing

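No paired analysis was possible because each well is a single nucleus, replicate numbers only name wells, and no test was made. Genes beyond 2-fold in both p numbers, 255 higher and 268 lower, became 37 and 2 on the mean log2(CPM + 10) scale (which moved the median of all genes to 0.26 in p1 and 0.22 in p2), 1070 and 1075 without the filter on low values, 18 and 24 at 4-fold, and 469 and 559 among nuclei of similar complexity, where 77 and 88 of the main calls were shared. Higher genes were 468 with negative nuclei from 0 counts, and lower genes 441 with FIL alone. By share, among nuclei of similar complexity 117 genes were higher, against 219, and 98 lower, against 1. With every nucleus at 50000 counts and presence from 1 count, 2 were lower. Listed genes called higher, 2, became 0 on the log2 scale, 5 without the highest nucleus of each group, 1 with FIL alone, 6 with negative nuclei from 0 counts, 7 without the filter, 0 at 4-fold and 5 among nuclei of similar complexity. Listed genes called lower, 5, became 1, 14, 0 and 9 on the log2 scale, without the filter, at 4-fold and at similar complexity. With at least 1 count, 42 of the 57 p1 nuclei were positive in place of 23. Over 31 named genes, 584 of 682 values kept their direction and side, 87 fell short of 2-fold and 11 changed sign. The 11 were GSTF2 in p1 (-1.01) and RTFL17 in p2 (-0.25) and VPS2.2 in p1 (0.23) at similar complexity, RTFL17 (-0.21) and YAB2 (-4.52) in p1 with FIL alone, AT5G63490 (2.63), VPS2.2 (1.03) and AIL5 (0.62) in p1 with negative nuclei from 0 counts, AIL5 in p1 (0.077) and CYCB1;1 in p2 (0.078) on the log2 scale, and AIL5 in p1 without the highest nucleus (0.50). The cause was not tested. The settings differed in how far they moved values. With library size from nuclear genes without ribosomal RNA genes, and with scaling by the median of ratios, all 62 values kept direction and side. At similar complexity 43 did, and on the log2 scale 27. The number of nuclei limits the shares: 23 and 27 positive nuclei give wide intervals.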

Other observations

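AGO10 was present in 9 of the 14 nuclei with FIL only and in 11 of the 24 with YAB3 only, that is in 20 of 38 nuclei with 1 of the pair, and in 0 of the 12 with both, where the limit of 3 nuclei is a share of 25%. AGO10 was singled out after its values were seen, and the difference was not tested. The median number of genes at 50000 counts was 3892 in p1 and 3764 in p2 with both genes, 3603 and 2635.5 with FIL only, and 3213 and 2463.5 with YAB3 only, and its part in this difference was not tested.

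In Smart-seq3, 0 of the 4 nuclei positive for FIL or YAB3 had at least 5 counts of STM, against 3 of the other 16. These 4 nuclei are too few for a difference to be detectable.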
